A study of Mus musculus with 3 samples.

Results

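The immediate early response genes are 41 named mouse genes that cells switch on within minutes of a stimulus from proteins already present, and their levels were read in macrophages of the heart, the kidney and the liver. They were chosen by gene symbol and no value entered the rule, but earlier results of these data were known when the list was made. Each gene is represented by its longest coding RefSeq transcript. All 41 were found among the 24453 gene symbols of the deposited table. Levels are in RPKM, which divides a gene's reads by its exon length in kilobases and scales every library to a total of 1000000. Of the 41 genes, 39 reached 1 RPKM in at least 1 library and belong to the 11482 genes compared, while Dusp4 and Dusp5 stayed under 1 RPKM in every library. Fosl1 and Srf passed that filter through a single library each, so a difference was built into their selection, and counts over the 39 genes do not stand for all 41.

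RNA was sequenced from macrophages of C57BL/6 mice aged 8 weeks and kept at steady state, with no treatment named in the labels. Cells from cardiac tissue, from renal tissue and from liver, where the labels call them Kupffer cells, were sorted as CD11b+F4/80+Ly6G-Ly6C-, and their total RNA was amplified with a kit for ultra-low input. Each tissue has 1 library. The sources used here do not say whether several animals were pooled in a library, or how each tissue was taken apart before the sort. There is thus no replicate behind any value, no test across animals is possible, and the intervals given are exact 95% counting intervals that cover counting error only, with PCR copies not separable from independent molecules.

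In a resting cell the control regions of many of these genes are already open and bound by SRF, CREB and other factors that signal-regulated kinases such as ERK, p38 and MSK modify, so transcription can start without new protein synthesis. Many of the messages are short-lived, and several of the proteins (the DUSP phosphatases, the ZFP36 proteins, SOCS3, ATF3) shut off the very signals or transcripts that the stimulus produced. In macrophages they are the first wave of the response to bacterial products and cytokines, and enzymatic digestion of tissue and cell sorting are also known to induce them.

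With 1 transcript per gene, the reads counted were 8751978 in the heart, 9485368 in the kidney and 10373696 in the liver library. All 10 general macrophage markers were at 1 RPKM or more in each library, with sums of 2992, 2778 and 2938 RPKM in heart, kidney and liver. All 6 Kupffer cell markers were present in the liver library, where they summed to 2296 RPKM, and Clec4f, Cd5l and Marco were at 0 in the heart and kidney libraries. The heart library had 2 of these 6 markers at 1 RPKM or more, with a sum of 190 RPKM of which Timd4 gave 148, and the kidney library had 1, with a sum of 2.88 RPKM. Each library also held transcripts of other cells of its tissue. Fibroblast and mural markers had 5 of 7 genes at 1 RPKM or more in the heart library (sum 151 RPKM, of which Dcn gave 125), 0 of 7 in the kidney library (sum 0.775, with Lum, Pdgfra and Pdgfrb at 0) and 1 of 7 in the liver library (sum 8.46, with those 3 genes, Col1a2 and Col3a1 at 0). Renal tubule markers had 4 of 8 genes at 1 RPKM or more in the kidney library (sum 284 RPKM, with Pvalb at 0) and 0 of 8 elsewhere (sums 0.59 in heart and 0.108 in liver). Endothelial markers had 1, 1 and 5 of 7 such genes, with sums of 5.25, 8.72 and 143 RPKM in heart, kidney and liver, and hepatocyte markers had 0, 0 and 6 of 7, with sums of 0.455, 0.22 and 146.7 RPKM. Inflammatory monocyte markers, against which the sort selected through Ly6C, summed to 263.5, 237.8 and 406 RPKM. B cell markers summed to 35.9, 167.7 and 222 RPKM, with Pax5 at 0 in every library and Cd79b as the highest gene, and neutrophil markers summed to 6.61, 0.14 and 0.065 RPKM, with Camp, Elane, Mpo and Ngp at 0 in every library. Fewer cells of a type and less RNA per cell cannot be told apart in such bulk libraries, and the part of these other cells in the values below was not tested.

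The immediate early genes shared features that the choice by name did not use. Their median gene length from the first to the last exon was 4259 bp, against 21170 bp for the 10651 coding genes compared, and 33 of 39 (84.6%) spanned under 10 kb, against 27.2% of those genes. Jun, Junb, Jund, Ier2, Ier5 and Rhob consist of a single exon, which is 15.4% of the members and 1.75% of coding genes. Spliced transcript lengths were alike, with medians of 2820 bp for the members and 2726 bp for coding genes, while the median number of exons was 3 for the members and 9 for coding genes.

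The 3′ UTRs held AU-rich nonamers, written TTATTTATT in DNA letters, which are the known binding site of the ZFP36 proteins, themselves members. Such a nonamer was present on the sense strand in 9 of 39 members (23.1%) and in 706 of the 10651 coding genes (6.63%). Medians of the 3′ UTR length were 1066 bases in members and 926 bases in coding genes. Where the search was held to the first 500 bases after the stop codon, 3 of 33 members with that much 3′ UTR (9.09%) and 2.37% of 7207 coding genes held it, while the shorter core ATTTA, which lies within the nonamer, was present in 39.4% of members and 49.9% of coding genes there. The sites of Fos, Dusp1, Zfp36 and Ppp1r15a are shown because these genes were among the highest members in at least 1 library and because Zfp36 carries the site its own protein binds. They come from GENCODE M21 transcripts on GRCm38, 5′ to 3′ on the transcribed strand, with the nonamers in capitals: Fos at chr12:85477103-85477132 on the plus strand, Dusp1 at chr17:26506158-26506187, Zfp36 at chr7:28376950-28376979 and Ppp1r15a at chr7:45522956-45522985, all on the minus strand. The bases shown for Ppp1r15a hold 3 overlapping nonamers of the 4 in its 3′ UTR.
Fos: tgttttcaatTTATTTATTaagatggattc
Dusp1: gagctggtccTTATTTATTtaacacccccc
Zfp36: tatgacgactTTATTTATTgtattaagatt
Ppp1r15a: tagtttcctaTTATTTATTTATTTATTtat

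Promoters were taken from RefSeq on GRCm38.p6, 250 bases before to 50 bases after the start, for the 31 members and 7772 compared genes whose start lay within 100 bases of that of the transcript in the deposited table. Motifs were searched on both strands, and matches of different motifs may overlap. The EGR site GCGNGGGCG was found in 11 of 31 member promoters (35.5%) and in 9.83% of all promoters. The TATA hexamer TATAAA was found in 8 (25.8%) and 7.67%, and the CCAAT box in 17 (54.8%) and 39.5%. The palindromic cAMP response element TGACGTCA was found in Btg2, Dusp1 and Ppp1r15a (9.68% of member promoters, 3.45% of all), and the CArG box, to which SRF binds, in Egr2, Srf and Zfp36 (9.68% and 1.38%). The NF-κB site was found in 5 (16.1%) and 10% of all promoters. The AP-1 site TGACTCA was found in 0 of 31 member promoters and in 3.64% of all. These matches describe letters in a short window and do not show binding. Bases outside the window were not searched. The Fos window held no CArG box, and Egr1 was not among the 31 member promoters.

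The 250 bases before the start are shown for a pair of promoters with a cAMP response element and a pair with a CArG box, each 5′ to 3′ on the transcribed strand with that motif in capitals. Dusp1 and Ppp1r15a differ in how evenly they were read, as described below. Egr2 and Zfp36 were both highest in the kidney library. Srf, whose promoter also held the CArG box and is not shown, was low and highest in the liver library, at 1.48 RPKM. The windows are chr17:26508473-26508722 for Dusp1, chr7:45526269-45526518 for Ppp1r15a and chr7:28379229-28379478 for Zfp36, all on the minus strand, and chr10:67537619-67537868 on the plus strand for Egr2.
Dusp1: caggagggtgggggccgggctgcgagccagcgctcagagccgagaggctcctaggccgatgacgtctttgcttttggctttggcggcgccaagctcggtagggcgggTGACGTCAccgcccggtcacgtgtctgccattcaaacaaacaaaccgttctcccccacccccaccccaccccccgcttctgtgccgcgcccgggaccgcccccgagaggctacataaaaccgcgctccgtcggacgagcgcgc
Ppp1r15a: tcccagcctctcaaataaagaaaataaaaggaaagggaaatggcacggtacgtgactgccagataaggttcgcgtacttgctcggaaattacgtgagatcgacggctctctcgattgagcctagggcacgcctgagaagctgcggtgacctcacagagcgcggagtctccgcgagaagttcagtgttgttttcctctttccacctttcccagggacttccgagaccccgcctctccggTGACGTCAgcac
Egr2: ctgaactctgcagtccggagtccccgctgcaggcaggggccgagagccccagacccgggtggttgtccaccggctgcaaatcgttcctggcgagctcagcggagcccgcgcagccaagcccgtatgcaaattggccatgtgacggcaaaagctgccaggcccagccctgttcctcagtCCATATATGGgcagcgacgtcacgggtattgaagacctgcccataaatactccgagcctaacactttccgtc
Zfp36: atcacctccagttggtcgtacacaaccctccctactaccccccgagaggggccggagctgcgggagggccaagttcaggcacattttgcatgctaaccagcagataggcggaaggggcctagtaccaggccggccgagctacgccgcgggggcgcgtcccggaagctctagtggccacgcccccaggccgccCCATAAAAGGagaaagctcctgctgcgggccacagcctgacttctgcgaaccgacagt

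**Figure D1:**
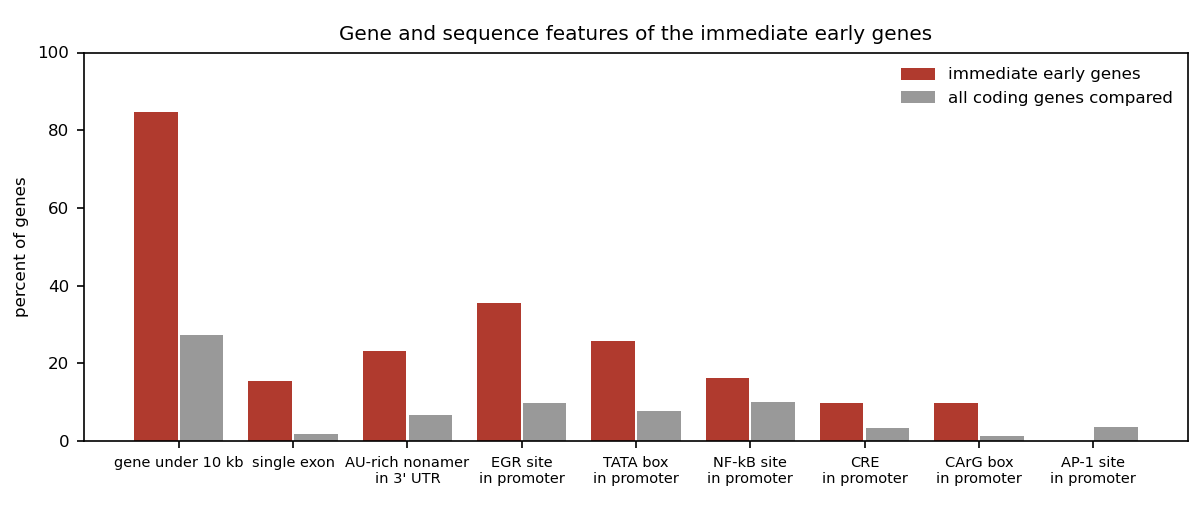
Percent of genes (y axis) with each gene or sequence feature (x axis), for the immediate early genes (red) and all coding genes compared (grey); promoter bars rest on the 31 and 7772 genes with a matched start, the other bars on 39 and 10651 genes. The red bars are the higher ones for every feature but the AP-1 site, which no member promoter held.

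Immediate early transcripts were abundant in all 3 libraries and most abundant in heart and kidney macrophages. The median of all 41 genes was 31.5 RPKM in the heart, 28 RPKM in the kidney and 17.7 RPKM in the liver library. It was 4.28, 5.72 and 5.29 RPKM for the 11482 genes compared, which leave out Dusp4 and Dusp5. Among the 39 members compared, the middle values were 32.7 RPKM (Zfp36l2), 33.4 RPKM (Myc) and 20.2 RPKM (Dusp6) in heart, kidney and liver. Heart and kidney thus changed order with Dusp4 and Dusp5 left out. At 100 RPKM or more stood 12 members (30.8%) in the heart library, 11 (28.2%) in the kidney and 7 (17.9%) in the liver library, while 6.51%, 6.44% and 7.79% of all genes compared did so. The 41 genes together took 1.36%, 1.35% and 0.735% of the reads in heart, kidney and liver. Fos, Egr1, Atf3, Dusp1, Zfp36, Klf6 and Btg2 were at 100 RPKM or more in every library, and 37 of the 39 were at 1 RPKM or more in every library, the exceptions being Fosl1 and Srf.

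**Figure D2:**
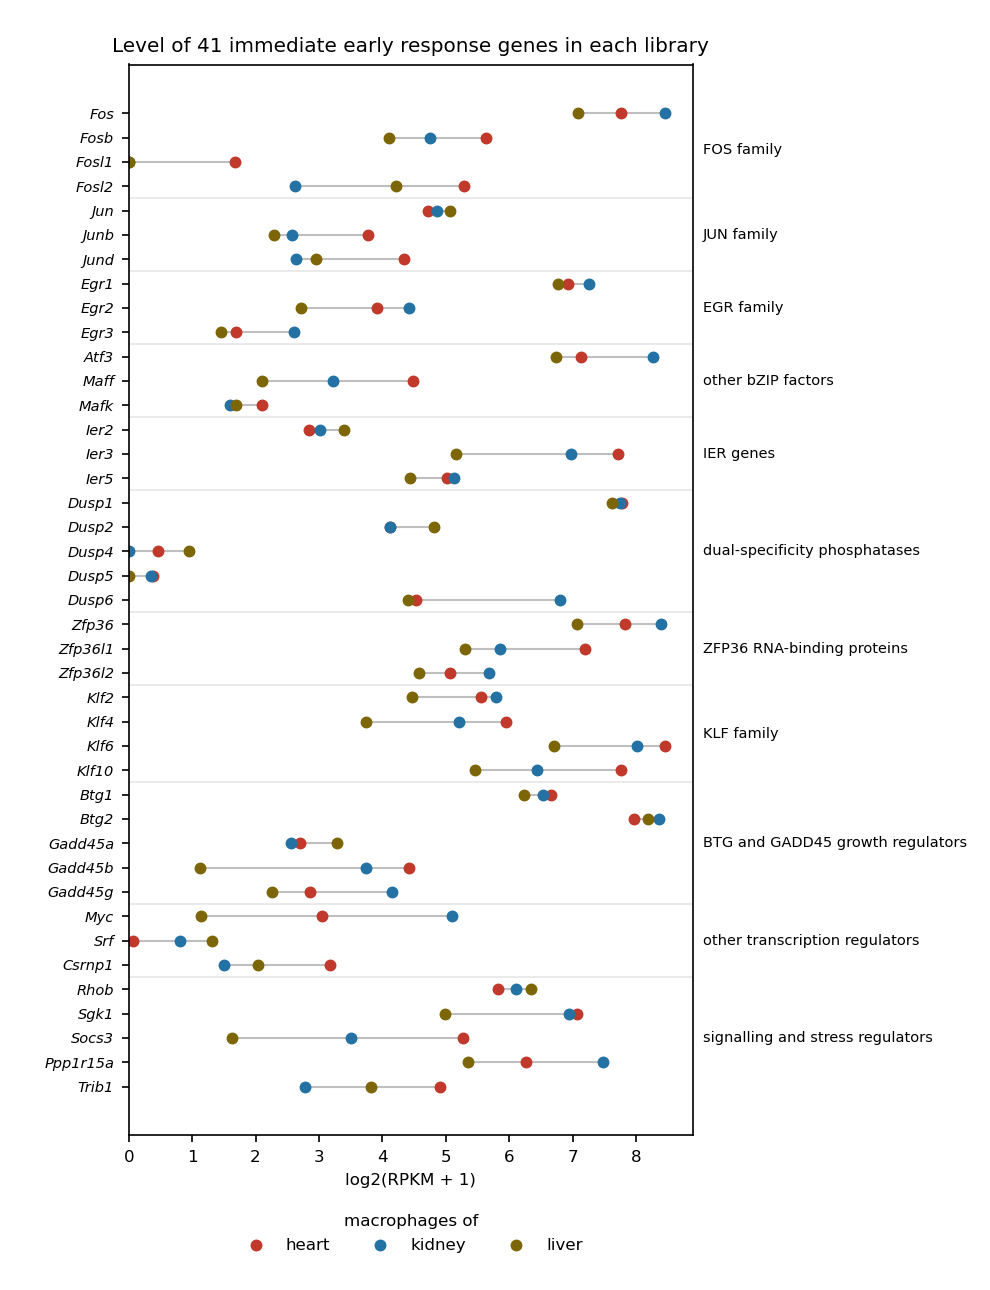
Level of each of the 41 genes on the log2(RPKM + 1) scale (x axis) in the heart, kidney and liver library, 1 point per library, grouped by protein family (rows); coinciding points hide one another, as for Fosl1 in kidney and liver, both at 0 RPKM, and for Dusp2 in heart and kidney. Liver points lie at the low end for most genes, and Myc, Socs3 and Gadd45b show the widest spans among genes read in all 3 libraries above 1 RPKM.

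The heart library was the highest of the 3 for 19 members (48.7%), the kidney library for 14 (35.9%) and the liver library for 6 (15.4%), whereas over all genes compared these shares were 23.5%, 37.3% and 39.2%. The liver library was the lowest for 26 members (66.7%), and for 33.5% of all genes. The most frequent orders were heart over kidney over liver (14 members, with Fosl1 tied at 0 in kidney and liver) and kidney over heart over liver (13 members). Heart over liver over kidney held for Fosl2, Jund, Mafk, Trib1 and Csrnp1, and liver over kidney over heart for Jun, Ier2, Dusp2, Srf and Rhob, with Btg2 and Gadd45a in orders of their own. The interval of the ratio between neighbours in these orders included 1 for the 2 highest libraries of Dusp1 and for the 2 lowest of Junb, Egr3, Ier2, Dusp2, Mafk and Gadd45a, so the counts do not settle the order of these neighbours. For the other members it excluded 1, apart from Fosl1 with 0 reads in both lower libraries. It did so narrowly for Jun (0.84 to 0.983) and Ier5 (0.863 to 0.992) in heart over kidney. Dusp6 was the closest of these, at 0.83 to 0.998 in liver over heart.

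In heart macrophages set against Kupffer cells, 7 of the 39 members (17.9%) were at least 4-fold higher on the log2(RPKM + 1) scale, where 5.33% of all genes compared were, and 0 members were at least 4-fold lower, where 7.13% of all genes were. The 7 genes were Ier3, Klf4, Klf10, Maff, Gadd45b, Sgk1 and Socs3. With a 2-fold threshold, chosen after the values were seen, 19 members (48.7%) were higher against a background of 17.9%, and 1, Srf, was lower against a background of 24.9%. The median difference of the members was 0.91 log2 units, and that of all genes compared was -0.16.

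Heart macrophages set against renal macrophages gave a more even split. At the 4-fold threshold 2 members (5.13%), Fosl2 and Trib1, were higher, where 2.40% of all genes were, and 2 members, Dusp6 and Myc, were lower, where 5.10% of all genes were. With the 2-fold threshold 10 members (25.6%) were higher against a background of 10.5%, and 5 (12.8%) were lower against a background of 22.9%. The median difference was 0.03 log2 units for the members and -0.23 for all genes. The 4-fold split was 4 higher and 2 lower after rescaling to TPM, in which all genes of a library sum to the same total, where 5.57% of all genes were higher and 10.9% lower. TPM multiplied the heart, kidney and liver values by 3.64, 3.49 and 3.21, so it also made the pseudocount of 1 smaller relative to the values, and the 4 genes were those that a pseudocount of 0.1 gave. After rescaling by the median ratio over genes the split was 3 higher and 0 lower, against 2.98% and 3.61% of all genes, under which Dusp6 and Myc fell short of the threshold.

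Renal macrophages set against Kupffer cells had 4 members (10.3%) at least 4-fold higher, Dusp6, Myc, Gadd45b and Ppp1r15a, where 7.57% of all genes were, and 0 at least 4-fold lower, where 5.10% were. With the 2-fold threshold 18 members (46.2%) were higher against a background of 24.2%, and Fosl2 and Trib1 were lower (5.13%) against a background of 17.7%. With TPM 7 members (17.9%) were at least 4-fold higher, near the 16.6% of all genes that were. The median difference was 0.70 log2 units for the members and 0.04 for all genes. The 3 comparisons share libraries, so they are not independent of one another.

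The libraries were not centred on one another, and scaling moved the differences of all genes. The median over all genes compared was -0.16, -0.23 and 0.04 log2 units for heart minus liver, heart minus kidney and kidney minus liver as deposited, -0.02, -0.22 and 0.15 after TPM rescaling, and 0.00, -0.01 and 0.01 after median ratio rescaling. For heart minus liver the shares of all genes past 4-fold were 6.72% higher and 5.84% lower with the median ratio. They were 12.7% and 11% with TPM, which changes the weight of the pseudocount as well as the scaling, and 13.8% and 14.7% with a pseudocount of 0.1 and no rescaling. Relative to the median of all genes, the members' median stood higher by 1.07, 0.26 and 0.66 log2 units for the 3 comparisons as deposited, by 1.13, 0.31 and 0.68 with TPM, and by 1.16, 0.33 and 0.65 with the median ratio. The sign of the difference was the same under the 3 scalings for every member except Btg2 in heart minus liver, Jun, Ier2, Ier5, Dusp2, Klf2 and Rhob in heart minus kidney, and Fosl1, at 0 in both libraries, in kidney minus liver.

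**Figure D3:**
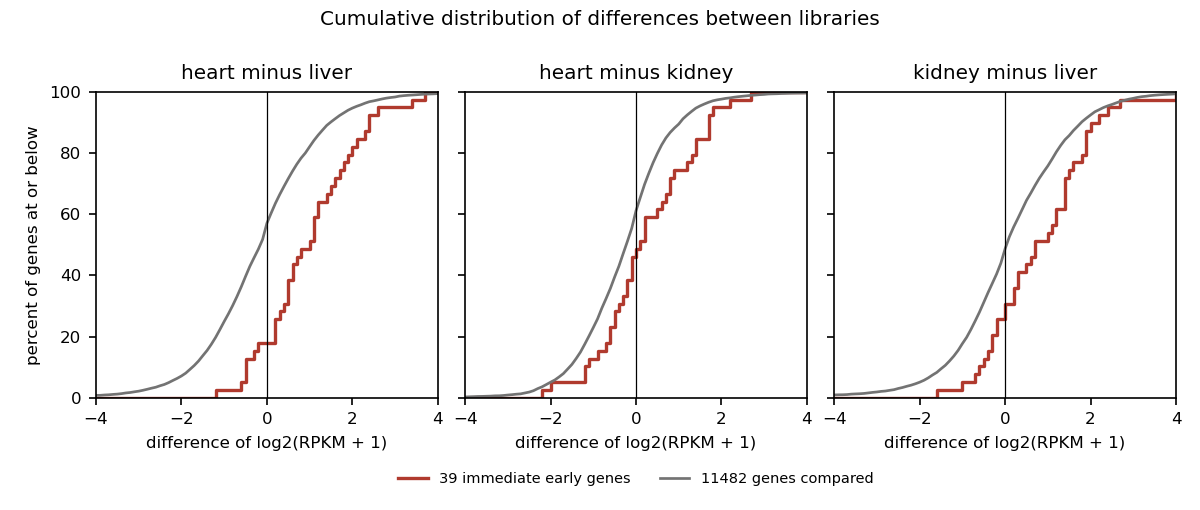
Cumulative percent of genes (y axis) at or below each difference of log2(RPKM + 1) between libraries (x axis) for the 39 immediate early genes (red steps) and the 11482 genes compared (grey), 1 panel per comparison. The red steps run to the right of the grey line over most of the heart minus liver and kidney minus liver panels, with member medians of 0.91 and 0.70, and nearer to it in heart minus kidney, with 0.03.

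The FOS proteins pair with JUN proteins to form AP-1, the factor that binds TGACTCA. Fos itself was at 216 RPKM in heart, 349.5 RPKM in kidney and 135 RPKM in liver macrophages, that is 1.59-fold higher in heart than in liver (interval 1.53 to 1.65) and 2.58-fold higher in kidney than in liver (2.50 to 2.67). Fosb, its close relative, ran in another order, with 48.6 RPKM in heart, 26 RPKM in kidney and 16.3 RPKM in liver, 2.98-fold higher in heart than in liver (2.77 to 3.21). Fosl2, which encodes FRA2, separated heart from kidney most among the FOS genes on the log2(RPKM + 1) scale. It had 38.2 RPKM in heart, 5.13 RPKM in kidney and 17.6 RPKM in liver, 7.45-fold higher in heart than in kidney (6.76 to 8.22) and at 0.29 times the liver level in kidney (0.262 to 0.322). Fosl1, which encodes FRA1, had 54 reads (2.20 RPKM) in the heart library and 0 reads in the kidney and liver libraries. Taking the 54 reads as they stand against a floor of 3 reads per library, it was at least 19.4-fold higher in heart than in kidney and at least 20.8-fold higher than in liver. With the counting error of the heart reads included, the exact 95% intervals of these ratios began at 15.2 and 16.4. Of its exon bases, 57.2% are shared with Ccdc85b on the opposite strand, whose reads an unstranded count cannot separate.

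Jun was the most even of the JUN genes, at 25.5 RPKM in heart, 28 RPKM in kidney and 32.6 RPKM in liver. Junb, whose product can restrain JUN, had 12.6 RPKM in heart, 4.97 RPKM in kidney and 3.90 RPKM in liver, 3.24-fold higher in heart than in liver (2.62 to 4.03) and 2.54-fold higher in heart than in kidney (2.09 to 3.12). Jund, the least inducible JUN gene, had 19.3 RPKM in heart, 5.26 RPKM in kidney and 6.77 RPKM in liver, 3.67-fold higher in heart than in kidney (3.17 to 4.27), but 52.6% of its exon bases are shared with Gm11175 on the opposite strand. Junb and Jund were thus highest in the heart library, and Jun was not.

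EGR1, EGR2 and EGR3 are zinc finger factors that bind GC-rich sites, and all 3 genes were highest in renal macrophages. Egr1 was at 120.3 RPKM in heart, 151.5 RPKM in kidney and 108.3 RPKM in liver, a span under 2-fold. Egr2 had 14.1 RPKM in heart, 20.5 RPKM in kidney and 5.59 RPKM in liver, 2.52-fold higher in heart than in liver and 3.67-fold higher in kidney than in liver (3.21 to 4.21). Egr3 was low, at 2.22 RPKM in heart, 5.10 RPKM in kidney and 1.74 RPKM in liver. Their heart minus kidney differences, from -0.92 to -0.33 log2 units, were all below 0 under each scaling.

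ATF3 is a stress-induced bZIP factor that represses many cytokine genes, and its transcript followed the order of Fos. Atf3 had 139 RPKM in heart, 307 RPKM in kidney and 105.7 RPKM in liver, 2.21-fold higher in kidney than in heart (2.13 to 2.3) and 2.91-fold higher in kidney than in liver (2.80 to 3.02). The small MAF proteins lack an activation domain and pair with NRF2 and other bZIP factors. Maff had 21.3 RPKM in heart, 8.35 RPKM in kidney and 3.32 RPKM in liver, 6.42-fold higher in heart than in liver (5.24 to 7.92), while Mafk stayed at 3.29, 2.03 and 2.25 RPKM in heart, kidney and liver.

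The KLF proteins are zinc finger factors that bind GC-rich and CACCC sites, and the 4 member genes Klf2, Klf4, Klf6 and Klf10 were all lowest in liver. Their summed level was 673 RPKM in heart, 434.5 RPKM in kidney and 179.6 RPKM in liver. Klf6, which promotes inflammatory gene expression in macrophages, was the highest member in the heart library at 349 RPKM, against 258 RPKM in kidney and 103.2 RPKM in liver, 3.38-fold higher in heart than in liver (3.29 to 3.47). Klf10, first described as a TGF-β-inducible early gene, had 217 RPKM in heart, 85.8 RPKM in kidney and 42.9 RPKM in liver, 5.06-fold higher in heart than in liver (4.83 to 5.30). Its shorter coding transcript gave the same order, at 88.4 RPKM in heart, 44.2 RPKM in kidney and 11.6 RPKM in liver. Klf4, a factor of monocyte differentiation and alternative activation, had 61.1 RPKM in heart, 35.9 RPKM in kidney and 12.4 RPKM in liver, 4.93-fold higher in heart than in liver (4.52 to 5.39). Klf2, which restrains inflammatory activation of myeloid cells, had 46 RPKM in heart, 54.6 RPKM in kidney and 21.1 RPKM in liver, and its order between heart and kidney depended on the scaling.

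Myc, a driver of growth and proliferation, showed the widest kidney to liver difference of the members. It had 7.28 RPKM (252 reads) in heart, 33.4 RPKM (1245 reads) in kidney and 1.20 RPKM (48 reads) in liver. Kidney was thus 27.9-fold higher than liver (20.9 to 38.1) and 4.59-fold higher than heart (4.01 to 5.28), and heart was 6.08-fold higher than liver (4.45 to 8.46). Srf, whose product recruits its cofactors to the CArG boxes of Fos, Egr1 and other members, ran the other way and was barely read, with 3 reads (0.051 RPKM) in heart, 48 reads (0.756 RPKM) in kidney and 101 reads (1.48 RPKM) in liver. The heart level was 0.0344 times that of liver (0.00698 to 0.103). Csrnp1, which encodes a nuclear protein first found as induced by AXIN1 in human cells, had 8.06 RPKM in heart, 1.83 RPKM in kidney and 3.11 RPKM in liver, 4.41-fold higher in heart than in kidney (3.45 to 5.68).

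Among the IER genes, Ier3 stood apart. Ier3, a regulator of apoptosis and of ERK signalling, had 210.4 RPKM in heart, 125 RPKM in kidney and 34.9 RPKM in liver, 6.03-fold higher in heart than in liver (5.54 to 6.58) and 3.59-fold higher in kidney than in liver (3.29 to 3.93). Ier2 had 6.15 RPKM in heart, 7.11 RPKM in kidney and 9.55 RPKM in liver, the opposite order. Ier5 had 31.5 RPKM in heart, 34.1 RPKM in kidney and 20.7 RPKM in liver, the heart level being 0.925 times that of kidney (0.863 to 0.992).

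The dual-specificity phosphatases remove phosphate from MAP kinases and so end the signal that induced them. Dusp1, which acts in the nucleus on p38 and JNK, was the most even of the abundant members, at 218 RPKM in heart, 213.5 RPKM in kidney and 196 RPKM in liver. It was densely read, at 3.16, 3.32 and 3.28 reads per base of exon in heart, kidney and liver. Whether the limit on tags per position, described below, evened these values was not tested. Dusp6, which acts in the cytoplasm on ERK, was the least even of the phosphatase genes above 1 RPKM, at 22.2 RPKM in heart, 111 RPKM in kidney and 20.2 RPKM in liver. The kidney library alone was high, 4.99-fold above heart (4.65 to 5.37) and 5.48-fold above liver (5.11 to 5.89). Dusp2, a nuclear phosphatase of lymphoid and myeloid cells, had 16.4 RPKM in heart, 16.5 RPKM in kidney and 27.1 RPKM in liver. Dusp4 was read 13, 0 and 38 times in heart, kidney and liver, and Dusp5 5, 5 and 0 times, both under 1 RPKM, so the nuclear ERK phosphatases that they encode were near the limit of detection.

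The ZFP36 proteins bind the AU-rich nonamers shown above and speed the decay of the messages that carry them. Zfp36, which encodes tristetraprolin, had 227 RPKM in heart, 334 RPKM in kidney and 133 RPKM in liver, and Zfp36l2 had 32.7, 50.2 and 23 RPKM in the same order of tissues. Both were highest in kidney and lowest in liver. Zfp36l1 differed from its relatives, at 145.8 RPKM in heart, 57 RPKM in kidney and 38.5 RPKM in liver, 2.56-fold higher in heart than in kidney and 3.79-fold higher in heart than in liver (3.60 to 3.99), though 55.9% of its exon bases are shared with Gm26669 on the opposite strand.

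BTG proteins slow proliferation and recruit the deadenylase that shortens poly(A) tails, and both BTG genes were high throughout. Btg2 had 249 RPKM in heart, 329 RPKM in kidney and 290.4 RPKM in liver, and it was the highest member in the liver library. Btg1 had 100.1 RPKM in heart, 91.2 RPKM in kidney and 74.3 RPKM in liver. The GADD45 proteins activate a stress kinase upstream of p38 and JNK, and the 3 genes had 3 different orders. Gadd45b had 20.5 RPKM in heart, 12.4 RPKM in kidney and 1.19 RPKM in liver, 17.3-fold higher in heart than in liver (11.6 to 27.1) and 10.4-fold higher in kidney than in liver (6.89 to 16.4). Gadd45g had 6.25 RPKM in heart, 16.7 RPKM in kidney and 3.78 RPKM in liver, 4.42-fold higher in kidney than in liver (3.38 to 5.85). Gadd45a was highest in liver, with 5.51 RPKM in heart, 4.91 RPKM in kidney and 8.78 RPKM in liver, and shares 19.1% of its exon bases with E230016M11Rik on the opposite strand.

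Among the signalling and stress regulators, Socs3, the inhibitor of receptors of the IL-6 family, had the largest heart minus liver difference of all members on the log2(RPKM + 1) scale, 3.64. It had 37.5 RPKM in heart, 10.3 RPKM in kidney and 2.09 RPKM in liver, 18-fold higher in heart than in liver (14.6 to 22.4), 3.63-fold higher in heart than in kidney (3.26 to 4.05) and 4.95-fold higher in kidney than in liver (3.96 to 6.25). Sgk1, a kinase that glucocorticoids and growth factors induce, had 134 RPKM in heart, 123 RPKM in kidney and 30.8 RPKM in liver. Heart and kidney were close to each other, and heart was 4.36-fold above liver (4.12 to 4.61). Trib1, a pseudokinase that directs C/EBP proteins to degradation, had 29.2 RPKM in heart, 5.90 RPKM in kidney and 13.1 RPKM in liver, 4.95-fold higher in heart than in kidney (4.42 to 5.56).

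Ppp1r15a encodes GADD34, the phosphatase subunit that restores translation after stress by dephosphorylating eIF2α. It had 76.2 RPKM in heart, 178 RPKM in kidney and 40 RPKM in liver, 2.34-fold higher in kidney than in heart (2.23 to 2.45) and 4.45-fold higher in kidney than in liver (4.21 to 4.71). Rhob, a small GTPase of endosomes, was higher in liver, with 55.7 RPKM in heart, 68.1 RPKM in kidney and 80.3 RPKM in liver. It and Dusp1 were among the 11 members whose highest level was less than 2 times the lowest, with Jun, Egr1, Ier2, Ier5, Dusp2, Btg1, Btg2, Mafk and Gadd45a. The share of all genes compared with so narrow a span was not counted, so this does not set the members apart.

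**Figure D4:**
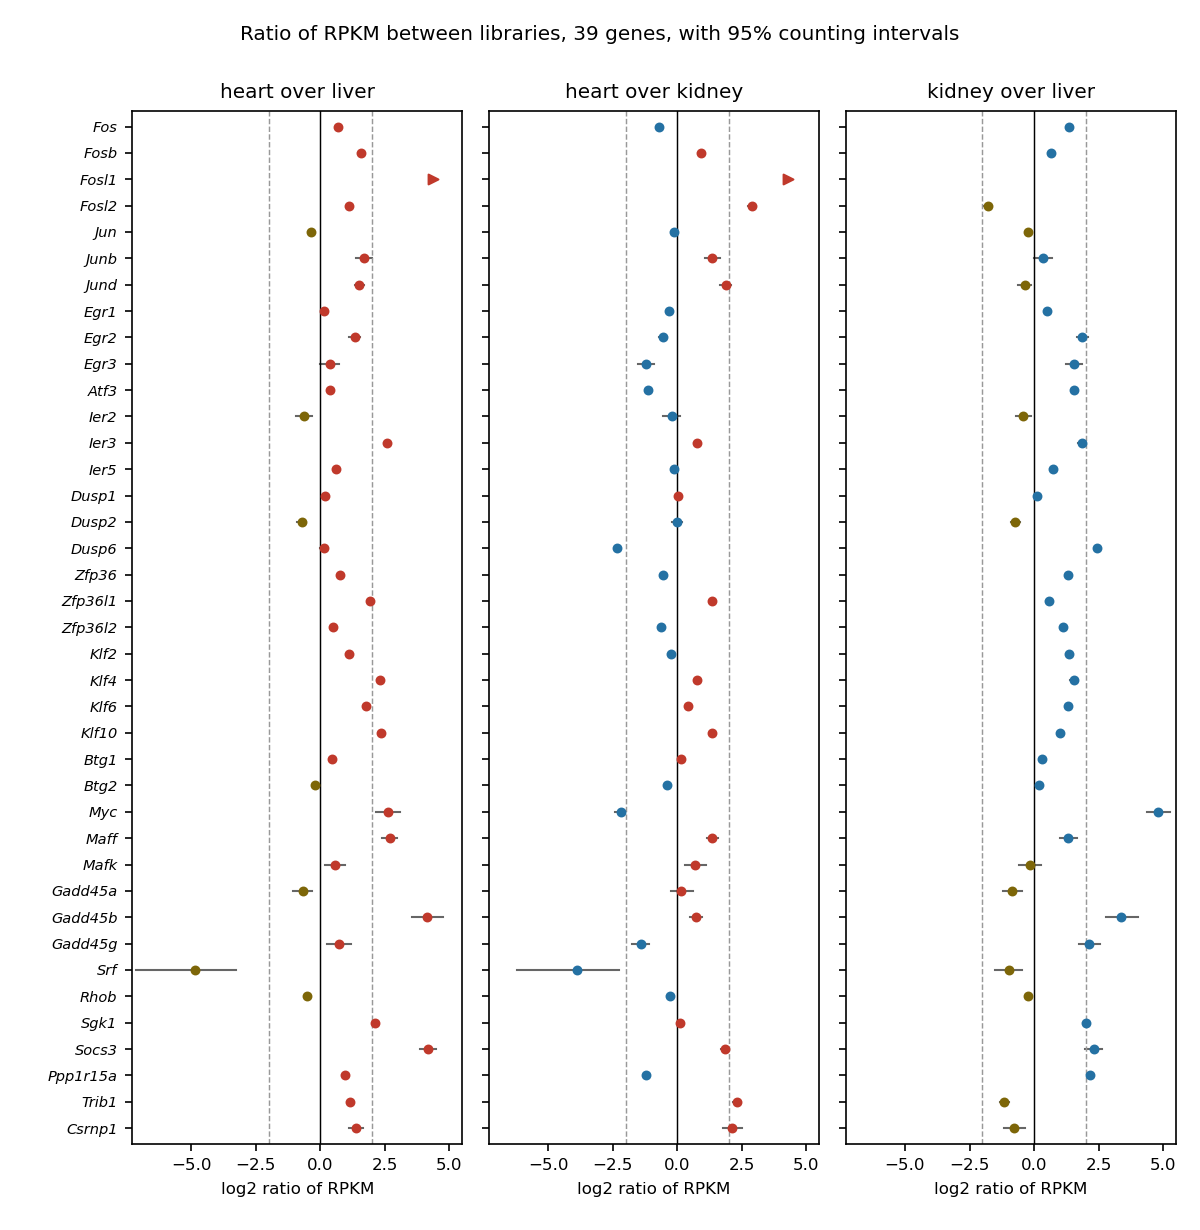
Log2 ratio of RPKM without a pseudocount (x axis) between each pair of libraries for the 39 genes (rows), with 95% counting intervals as bars and dashed lines at 4-fold; the colour names the library with the higher level and a triangle marks the lower bound for Fosl1. Myc in kidney over liver (27.9-fold) and Socs3 (18-fold) and Gadd45b (17.3-fold) in heart over liver lie farthest to the right among genes with reads in all 3 libraries.

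The file header gives a limit of 3 tags per position, which bears on genes with many reads per base. Of the 39 members, 11 exceeded 2 reads per base of exon in at least 1 library, with Fos at 3.12, 5.44 and 2.27, Klf6 at 5.05, 4.01 and 1.73 and Btg2 at 3.6, 5.12 and 4.86 reads per base in heart, kidney and liver. There was no strict ceiling, since of 10164 compared genes of at least 1000 bp 15 in heart, 13 in kidney and 34 in liver exceeded 6 reads per base. Over all 11482 genes compared, 942 exceeded 2 reads per base in at least 1 library. The median differences for heart minus liver, heart minus kidney and kidney minus liver were 0.77, -0.33 and 1.31 log2 units in the 11 densely read members and 1.08, 0.13 and 0.47 in the other 28. Over all genes they were -0.23, -0.02 and -0.19 in the 942 densely read genes and -0.14, -0.27 and 0.07 in the other 10540. Dusp1 had 3.16, 3.32 and 3.28 reads per base in heart, kidney and liver. How far the limit holds down the values of Fos, Klf6 and Btg2, or evens those of Dusp1, was not tested.

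**Figure D5:**
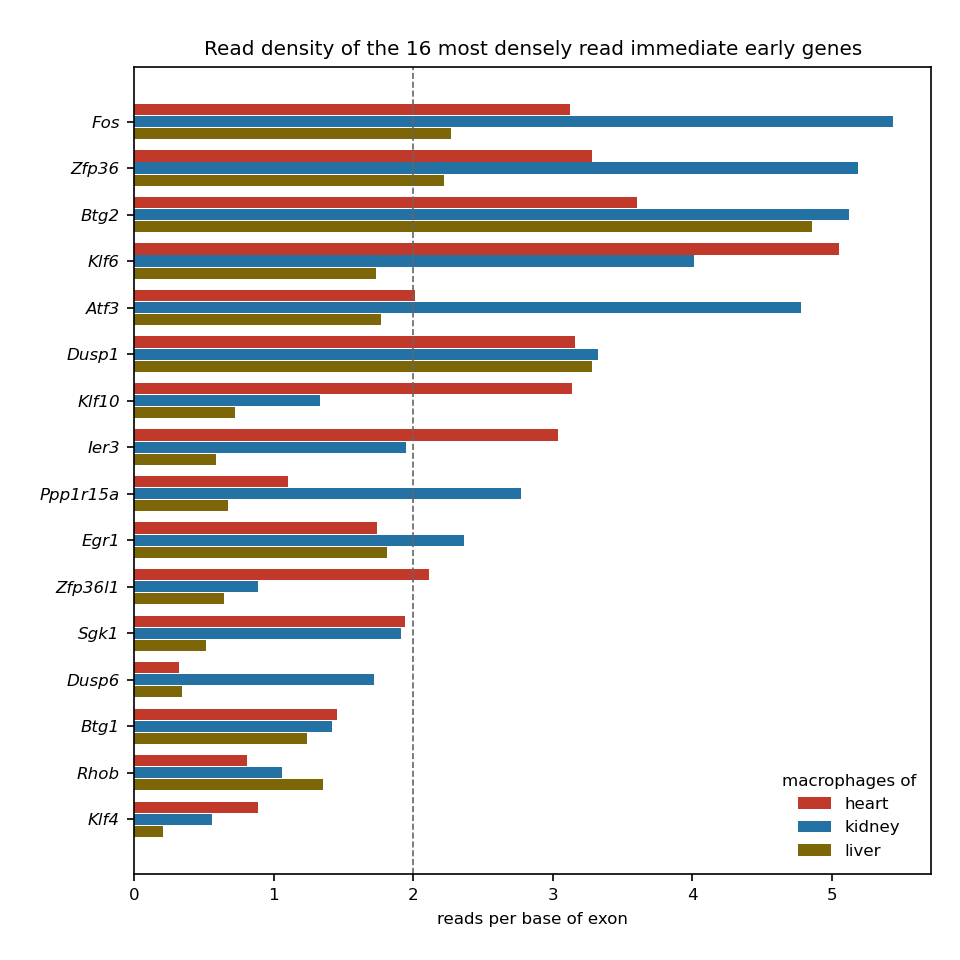
Reads per base of exon (x axis) in the heart, kidney and liver library for the 16 immediate early genes with the highest density (rows); the dashed line marks 2 reads per base. Fos in kidney, at 5.44, is the highest bar, and 11 genes pass the line in at least 1 library.

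The members with the most GC-rich transcripts had lower median levels than the others. The 7 members with a transcript GC content of at least 60%, Junb, Jund, Egr3, Ier2, Klf2, Maff and Srf, had median levels of 12.7 RPKM in heart, 5.26 RPKM in kidney and 3.90 RPKM in liver, against 43.4, 43.1 and 25 RPKM for the other 32. Klf2, however, had 46 RPKM in heart and 54.6 RPKM in kidney, above the medians of those 32 there. The same split was not made over all genes compared. Whether amplification lowered the GC-rich transcripts was not tested.

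Further genes of the pathway were counted in lists named by function. Over all genes compared, 5.33% were at least 4-fold higher and 7.13% lower in heart than in liver. These shares were 2.40% and 5.10% for heart against kidney, and 7.57% and 5.10% for kidney against liver. They are the background of each list below. Of 19 compared genes in a list of further immediate early genes, 1 (5.26%) was at least 4-fold higher and 0 lower in heart than in liver. In heart against kidney 5 (26.3%) were higher and 1 (5.26%) lower, and in kidney against liver 0 were higher or lower. The medians of the 3 comparisons were 1.05, 0.66 and 0.06 log2 units. Crem, a cAMP-responsive factor with an inducible repressor form, had 146.4 RPKM in heart, 15.8 RPKM in kidney and 62.1 RPKM in liver. Klf9 (24.4, 2.11 and 9.86 RPKM) and Nfil3 (13.8, 1.39 and 2.82 RPKM in heart, kidney and liver) shared with Fosl2, Trib1 and Csrnp1 the order heart over liver over kidney. The matricellular gene Cyr61 was high in kidney alone, at 6.88 RPKM in heart, 32.5 RPKM in kidney and 7.98 RPKM in liver.

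The kinases and factors upstream of the response had medians close to those of all genes. Of 24 such genes, 2 (8.33%) were at least 4-fold higher and 0 lower in heart than in liver. In heart against kidney 0 were higher and 1 (4.17%) lower, and in kidney against liver 1 (4.17%) was higher and 1 (4.17%) lower. The medians of the 3 comparisons were -0.04, -0.23 and 0.20 log2 units. Map3k8, the kinase that couples Toll-like receptors to ERK, had 143 RPKM in heart, 75.3 RPKM in kidney and 14.7 RPKM in liver. Map2k3, an activator of p38, had 38.6, 8.99 and 7.60 RPKM in heart, kidney and liver, whereas the ERK-regulated kinase gene Rps6ka1 had 9.21, 75.6 and 21.1 RPKM and Mapkapk2, a target of p38, 4.89, 2.41 and 12.8 RPKM. Of 6 further MAP kinase phosphatases, 2 (33.3%) were at least 4-fold higher in heart than in liver and 1 (16.7%) higher in heart than in kidney. There were 0 in the other directions or in kidney minus liver. Dusp16, a phosphatase of JNK, had 42 RPKM in heart, 6.39 RPKM in kidney and 2.63 RPKM in liver. Dusp8 had 13.4, 14.9 and 3.34 RPKM in heart, kidney and liver. Dusp3 (41.8, 30.6 and 85.7 RPKM) and Dusp10 (6.67, 3.87 and 10.5 RPKM) were highest in liver instead.

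Of 12 further AP-1 and bZIP factors, 2 (16.7%) were at least 4-fold higher and 3 (25%) lower in heart than in liver. In heart against kidney 1 (8.33%) was higher and 3 (25%) lower, and in kidney against liver 1 (8.33%) was higher and 0 lower. Batf, a partner of JUN proteins, had 60.4 RPKM in heart, 29.3 RPKM in kidney and 6.11 RPKM in liver, while its relative Batf3 had 1.37, 12.2 and 10.6 RPKM. Jdp2, which represses AP-1, had 14.7 RPKM in heart, 0.589 RPKM in kidney and 2.48 RPKM in liver. Ddit3, which encodes the stress factor CHOP that induces Ppp1r15a, had 19.8 RPKM in heart, 179.5 RPKM in kidney and 107.9 RPKM in liver, an order that Ppp1r15a shared only in that kidney was highest.

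Genes that digestion and handling can induce were read in the same libraries. Of 12 inflammatory primary response genes, 3 (25%) were at least 4-fold higher and 0 lower in heart than in liver. In heart against kidney 3 (25%) were higher and 0 lower, and in kidney against liver 2 (16.7%) were higher and 1 (8.33%) lower. The medians of the 3 comparisons were 0.85, 0.84 and 0.27 log2 units. Ptgs2, the inducible cyclooxygenase, had 249 RPKM in heart, 32.5 RPKM in kidney and 0.054 RPKM in liver, and the chemokine Cxcl1 had 393, 81.8 and 14.6 RPKM. The cytokine Il1a had 413 RPKM in heart, 38.5 RPKM in kidney and 356 RPKM in liver, a low value in kidney that Fosl2 and Trib1 also showed. Of 13 heat shock genes reported after tissue dissociation, 3 (23.1%) were at least 4-fold higher and 0 lower in heart than in liver. In heart against kidney 0 were higher and 1 (7.69%) lower, and in kidney against liver 4 (30.8%) were higher and 0 lower. Their medians in the 3 comparisons were 1, -0.19 and 1.27 log2 units. The cochaperone gene Dnajb1 had 22.3 RPKM in heart, 142 RPKM in kidney and 6.95 RPKM in liver, and Dnaja1 had 159, 151.7 and 25.6 RPKM. Of 12 housekeeping genes 0 passed 4-fold in any comparison, with medians of -0.18, -0.11 and 0.02. The inflammatory list, the heat shock list and the members had medians above that of all genes in each comparison. In heart minus kidney these were 0.84, -0.19 and 0.03, against -0.23 for all genes, so the heat shock list was barely above. The heat shock list had its highest median in kidney minus liver. The part of what moves these lists in the members' levels was not tested.

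Along the genome the members were scattered, with 5 each on chromosomes 8 and 10 as the most on any chromosome. Ier2 and Junb lie 314056 bp apart on chromosome 8, and yet Ier2 was highest in liver and Junb highest in heart. Trib1 and Myc lie 2328241 bp apart on chromosome 15, with Trib1 lowest and Myc highest in kidney, and Btg1 and Dusp6 lie 2640419 bp apart on chromosome 10.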

How the data were processed

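Macrophage RNA from heart, kidney and liver was analysed, 1 library each. The deposited values are RPKM, computed by the authors, per the file headers, with the HOMER program analyzeRepeats.pl for 34711 RefSeq transcripts of mm10, counting exon reads on both strands with a limit of 3 tags per position. The column names say FPKM where the header command asks for RPKM. CASAVA, STAR and mm10 are named in the submitters' processing notes, without versions. The tag limit can lower densely read genes, and counting without strand joins overlapping genes.

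For each symbol the longest coding transcript was kept, and 11482 genes reaching an RPKM of 1 in any library entered the comparisons. Low values of RPKM times exon length were whole multiples of 1 read. They lay within 0.1 of a whole read for 15280 of 15284 values in heart, 14212 of 14219 in kidney and 12139 of 12154 in liver. This gave the reads per gene and totals over all transcripts of 14460687, 15550860 and 16743426 reads in heart, kidney and liver, to which RPKM is scaled. Over 1 transcript per gene the reads summed to 8751978, 9485368 and 10373696. Differences are log2(RPKM + 1), and 2 log2 units (4-fold) counted as higher or lower. This scale understates changes of low genes. Folds printed for a gene are RPKM ratios without a pseudocount, and their intervals are exact 95% intervals (Poisson, Clopper-Pearson). With 1 library per tissue there is no test and no p-value. The step was tested on simulated data. Alternatives were the pseudocount, the filter, TPM and median ratio scaling, the transcript kept, and leaving out densely read genes.

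The members and the other gene lists were chosen with earlier results of these data known. All members are described, and of each other list the named genes are at most 4 with the largest difference among those reaching RPKM of 10. One list symbol, Ccn1, was not found under that name. Overlap with other genes, gene spans and 3′ UTRs came from GENCODE M21. Python 3.11.15, pandas 2.3.3, numpy 2.4.6 and scipy 1.17.1 were used.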

Additional observations from a re-analysis of the deposited data

How the results depend on the processing

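Counts of members past 4-fold were small, and several moved by a few genes. With a pseudocount of 0.1, 1 member (Srf) was lower in heart minus liver (14.7% of all genes) and 4 were higher in heart minus kidney (6.54% of all genes), Csrnp1 and Fosl1 joining Fosl2 and Trib1. With a pseudocount of 5, 4 members were higher in heart minus liver (1.69% of all genes), and 1 was higher and 1 lower in heart minus kidney (0.941% and 0.914%). With TPM scaling, which also lessens the weight of the pseudocount, 1 member was lower in heart minus liver (11% of all genes), 4 were higher in heart minus kidney (5.57%) and 7 higher in kidney minus liver (16.6%). With median ratio scaling 0 were lower in heart minus kidney (3.61% of all genes). Leaving out genes over 2 reads per base kept 28 members. Their median then stood above that of all genes by 1.22, 0.40 and 0.40 log2 units in heart minus liver, heart minus kidney and kidney minus liver. With all genes kept these values were 1.07, 0.26 and 0.66. In kidney minus liver, 16 of the 28 lay above the median of all genes. A 2-fold threshold, chosen after seeing the data, gave 19 higher and 1 lower in heart minus liver, 10 higher and 5 lower in heart minus kidney, and 18 higher and 2 lower in kidney minus liver. The causes of these moves were not tested beyond the settings' own construction. No member's called difference reversed under the settings run. The transcript kept for a gene left all 117 member differences within their counting intervals, while TPM scaling moved 70 and median ratio scaling 57 of them beyond these. No paired analysis was possible because each tissue has 1 library. With 1 library per tissue, differences between animals, isolations and tissues cannot be told apart.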
